A study of Mus musculus with 14 samples.

Results

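Transcript levels in the neonatal mouse cortex were compared with those in the neonatal cerebellum on 8 of the series' 14 Affymetrix 430A arrays, 4 of each region. The members were chosen by their labels: the tissue named in the title, the duplication carried and the replicate number. The 8 arrays form 4 pairs of 1 cortex and 1 cerebellum array with the same duplication and number. All mice were T9H/+, heterozygous for a translocation between chromosomes 7 and 15. In MatDp7 mice the duplicated proximal part of chromosome 7 came from the mother and that of chromosome 15 from the father; in PatDp7 mice the parents were exchanged. No array comes from a mouse without these duplications. Each region has 2 arrays per duplication, numbered 1 and 2 and described as biological replicates. The age is given as neonatal with no day. Whether an array holds 1 animal or a pool, and whether a pair comes from the same animal, is not given in the sources used here, so p-values measure the spread between these samples. The 4 arrays of 15.5 dpc brain (days post coitum) from the same duplications were used for levels only. The cortex samples are also described as forebrain, and the labels do not say what was dissected beside cortex.

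The telencephalon, which forms the cortex and, below it, the striatum and other ventral nuclei, and the dorsal hindbrain, which forms the cerebellum, are set apart early by transcription factors that later also mark their neurons. Cortical excitatory neurons use bHLH and zinc finger factors of the Neurod, Bcl11 and Zbtb18 kind, while GABAergic neurons born in the ventral telencephalon carry Dlx and Lhx6 factors. In the cerebellum, Engrailed and Iroquois factors mark regional origin, granule cells come from the rhombic lip and Purkinje cells from the ventricular zone. At birth the granule cells are still dividing, and both regions hold maturing glia.

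Values are deposited signal intensities, given in the order MatDp7 replicate 1, MatDp7 replicate 2, PatDp7 replicate 1 and PatDp7 replicate 2. Differences are cortex minus cerebellum of log2(intensity + 52.0), averaged over the 4 pairs, with the standard error of the limma fit; a negative value is higher in cerebellum. The added constant makes differences of dim genes smaller than the ratio of their intensities. A probe set was called where its Benjamini-Hochberg adjusted p over 13576 tested probe sets was under 0.05, and a gene is represented by 1 probe set. Of these probe sets 722 were called, a share of 5.32%, with 346 (2.55%) higher in cortex and 376 (2.77%) higher in cerebellum. Per gene, 446 of 8156 were called (5.47%), 200 higher in cortex (2.45%) and 246 higher in cerebellum (3.02%). The split between directions moves with scaling: with every array set to the same median, 184 of 598 called probe sets were higher in cortex and 414 in cerebellum. Of 112 called genes from the lists and the leading genes, 19 lose the call under that scaling: Bcl11a, Car2, Cnr1, Dbi, Htr3a, Insm1, Kcnk2, Meis2, Mycn, Ndrg1, Olig1, Oxt, Rgs5, Rxra, Slco1c1, Thra, Wnt7a, Wnt7b and Xist. Quantile scaling ends 9 calls, 8 of these and that of Calb2. Of the 446 called genes 445 had the same sign in 4 of 4 pairs, 46 were at least 1 log2 unit higher in cortex and 40 at least 1 unit higher in cerebellum. The paired fit selects genes whose 4 differences agree, so the sign count follows from the calls and is not a separate result.

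Most of these calls need the pairs or the replicate number in the fit. Replicate 1 arrays of both regions differed from replicate 2 arrays in the range of their values, with maximum intensities of 43127 to 61172 against 17662 to 20569, and in Xist, the X-inactivation transcript, at 201 to 437 against 2882 to 5108. The Y-linked genes ran the other way, with Eif2s3y at 45.9 to 113 on replicate 1 arrays against 0.51 to 1.62 on replicate 2 arrays and Uty at 249.9 to 319 against 29.1 to 52.3. The replicate number thus goes with sex as these genes mark it, and number, sex and range cannot be told apart. Without the pairs as a block, 40 probe sets were called (0.295%) and 26 genes (0.319%), all of them among those called with it. Over all genes, the 4 cortex arrays lay above the 4 cerebellum arrays without overlap for 260 genes (3.19%) and below them for 254 (3.11%), and among called genes for 96 and 119. Of the 112 called genes from the lists and the leading genes, 59 were also called in each of the 4 fits without 1 pair. In none of those fits were 15 called: Bnip3, Car2, Chgb, Cnp, Dbi, Gabrg1, Htr1b, Htr3a, Insm1, Kcnk2, Lmo1, Olig1, Rgs5, Robo1 and Wnt7a. The remaining 38 were called in 1 to 3 of them: Adcyap1, Alas2, Apoe, Bcl11a, Calb2, Cbln1, Cdh22, Chrna3, Cnr1, Cntn1, Cort, Cxcr4, Ddc, Dkk3, Dscam, Efnb2, Epha4, Foxa2, Fzd1, Gfap, Irx1, Lhx5, Meis2, Mycn, Ndrg1, Oxt, Pcdh18, Pdgfra, Rora, Rxra, Sema3c, Slc6a9, Slco1c1, Tcf7l2, Thra, Tiam1, Wnt7b and Xist. Where the call of a gene described with all its values is lost in the fit with neither pairs nor replicate number, that fit's adjusted p is given as the unpaired adjusted p. In bulk samples fewer cells of a type and less RNA per cell cannot be told apart, which holds for every gene below.

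**Figure D1:**
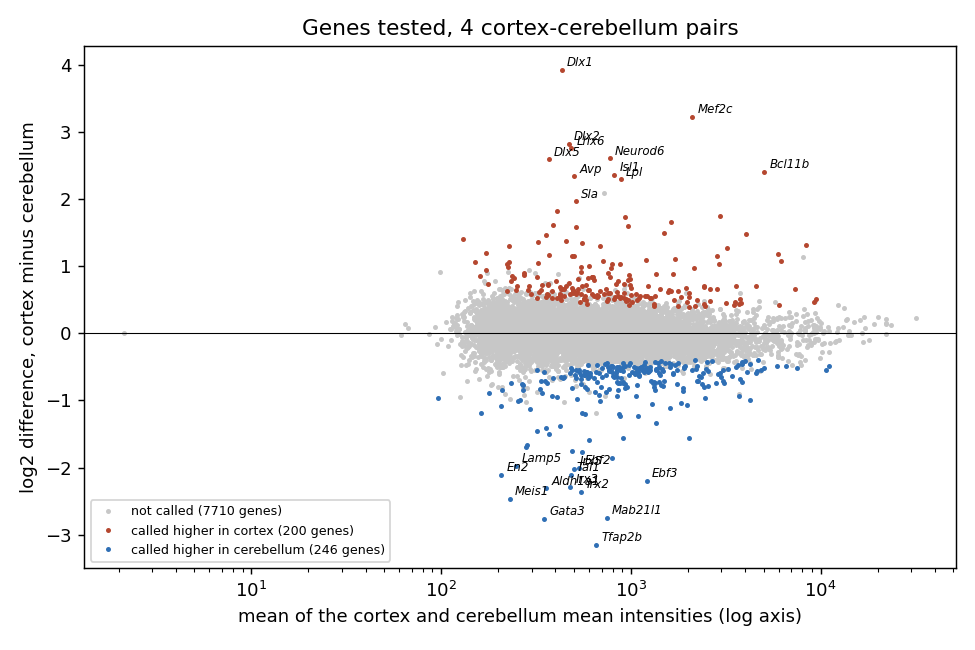
Log2 difference, cortex minus cerebellum, of each tested gene (y axis) against the mean of its cortex and cerebellum mean intensities (x axis, log scale); coloured points are the 200 genes called higher in cortex and the 246 called higher in cerebellum, and names mark the leading genes. Dlx1 stands highest at 3.93 and Tfap2b lowest at -3.15.

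Some of the called genes with the largest differences are neighbours on a chromosome, and their promoters are shown so that they can be read beside the values. In the RefSeq gene order, 3749 neighbouring pairs of protein-coding genes had both members tested; in 12 of them both were called in the same direction and in 4 in opposite directions. Among the 12 are Dlx1 with Dlx2, Irx1 with Irx2, Irx3 with Irx5, and Avp with Oxt. RefSeq promoter windows (250 bases before to 50 bases after a start, build GRCm38.p6) were found for 6638 of the 8156 tested genes and 338 of the 446 called ones. Windows were searched on both strands for TAATTA, a core recognised by many homeodomain proteins, and for CANNTG, the E-box recognised by bHLH proteins; both read the same on either strand, and a match of one cannot overlap a match of the other. TAATTA occurred in 2.59% of the 8663 windows of tested genes, in 4.24% of 236 windows of genes called higher in cortex and in 5.08% of 256 windows of genes called higher in cerebellum, beside 5.29% of all 32851 windows. CANNTG occurred in 62.7%, 62.7%, 60.9% and 72.3% of the same sets. These shares are descriptions with no test, and windows of 1 gene can overlap. The first 4 windows belong to the neighbouring or paired homeobox genes Dlx1, Dlx2, Irx2 and Irx3. The others, of Mef2c and Barhl1, belong to a called gene of each region whose window holds TAATTA. Other called genes also had such windows, among them Otx2, which is not shown. Each is read on the gene's own strand, and capitals mark TAATTA or CANNTG.
Dlx1, chr2:71529195-71529494, plus strand: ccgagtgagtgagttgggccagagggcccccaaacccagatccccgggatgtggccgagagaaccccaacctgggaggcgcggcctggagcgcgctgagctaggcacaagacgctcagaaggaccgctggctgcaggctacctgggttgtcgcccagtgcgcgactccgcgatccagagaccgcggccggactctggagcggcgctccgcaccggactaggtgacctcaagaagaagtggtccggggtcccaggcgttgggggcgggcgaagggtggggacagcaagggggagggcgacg
Dlx2, chr2:71546705-71547004, minus strand: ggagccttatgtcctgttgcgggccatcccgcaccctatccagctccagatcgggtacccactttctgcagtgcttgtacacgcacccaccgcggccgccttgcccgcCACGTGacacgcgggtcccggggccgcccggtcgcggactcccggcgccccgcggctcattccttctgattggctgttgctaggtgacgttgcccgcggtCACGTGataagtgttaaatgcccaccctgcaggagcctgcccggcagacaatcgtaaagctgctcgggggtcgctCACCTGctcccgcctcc
Irx2, chr13:72628570-72628869, plus strand: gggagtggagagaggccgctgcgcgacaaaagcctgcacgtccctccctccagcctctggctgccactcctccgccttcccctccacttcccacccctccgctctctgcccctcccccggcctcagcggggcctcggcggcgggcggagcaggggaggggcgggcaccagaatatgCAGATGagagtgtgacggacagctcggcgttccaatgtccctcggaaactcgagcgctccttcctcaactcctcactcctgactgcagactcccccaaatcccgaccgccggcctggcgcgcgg
Irx3, chr8:91801605-91801904, minus strand: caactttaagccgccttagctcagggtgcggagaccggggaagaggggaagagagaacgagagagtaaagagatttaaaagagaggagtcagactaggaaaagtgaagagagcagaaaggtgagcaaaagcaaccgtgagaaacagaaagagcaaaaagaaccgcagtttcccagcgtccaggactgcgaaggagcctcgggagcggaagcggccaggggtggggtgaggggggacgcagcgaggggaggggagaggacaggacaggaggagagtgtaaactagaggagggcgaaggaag
Mef2c (its second of 3 windows), chr13:83523406-83523705, plus strand: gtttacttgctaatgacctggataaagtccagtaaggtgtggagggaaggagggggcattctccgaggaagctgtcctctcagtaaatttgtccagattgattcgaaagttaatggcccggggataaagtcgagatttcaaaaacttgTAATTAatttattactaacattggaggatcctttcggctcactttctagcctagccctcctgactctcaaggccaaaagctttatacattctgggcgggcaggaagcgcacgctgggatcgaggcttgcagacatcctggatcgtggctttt
Barhl1 (its first of 2 windows), chr2:28916619-28916918, minus strand: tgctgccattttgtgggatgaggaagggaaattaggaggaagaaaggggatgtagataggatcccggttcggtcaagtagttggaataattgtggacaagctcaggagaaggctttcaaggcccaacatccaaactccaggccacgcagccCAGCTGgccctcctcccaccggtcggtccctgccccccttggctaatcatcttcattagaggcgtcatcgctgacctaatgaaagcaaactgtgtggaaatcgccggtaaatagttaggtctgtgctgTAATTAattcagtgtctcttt
The Dlx1 and Irx3 windows held neither motif, the Dlx2 window held 3 E-boxes and the Irx2 window 1. The Barhl1 window held both motifs once.

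Homeobox and LIM factors of ventral telencephalic GABAergic neurons were among the genes furthest above the cerebellum. Dlx1, which is needed for the migration and survival of these neurons, had the largest difference in that direction. It read 988, 933, 778 and 724 on the cortex arrays and 11.1, 7.47, 6.45 and 3.54 on the cerebellum arrays. All 4 cortex values stood above all 4 cerebellum values, and the cerebellum values lay below the added constant, so the size of the difference depends on it. The log2 difference was 3.93 ± 0.15 (adjusted p = 5.08e-06), and 5.10 or 2.62 with the constant at the 10th or 40th percentile of all values in place of the 20th. Its neighbour Dlx2, which starts the same programme in progenitors, read 1076, 748, 1107 and 535 on the cortex arrays and 104, 73.7, 44.7 and 74.7 on the cerebellum arrays, a difference of 2.83 ± 0.21 (adjusted p = 6.51e-05). Dlx5, a later member, read 944, 676, 463 and 593 on the cortex arrays and 97.2, 97.7, 31.6 and 44.7 on the cerebellum arrays, a difference of 2.60 ± 0.15 (adjusted p = 1.87e-05). Neither gene overlapped between regions. Of the 4 Dlx genes tested, the other one, Dlx4, differed by -0.01 (adjusted p = 0.991). Lhx6, a LIM factor of cells from the medial ganglionic eminence, read 897, 961, 806 and 872 on the cortex arrays and 90.0, 113, 91.2 and 55.8 on the cerebellum arrays, with a difference of 2.76 ± 0.14 (adjusted p = 1.71e-05) and no overlap.

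Of 12 tested genes of the ventral GABAergic list, 7 were called higher in cortex and 1 higher in cerebellum, with a median difference of 0.75 against 0.02 over all genes. Npy, a peptide of cortical and striatal interneurons, read 1939, 3001, 1104 and 2915 on the cortex arrays and 688, 868, 394 and 1019 on the cerebellum arrays, a difference of 1.50 ± 0.11 (adjusted p = 5.24e-05, unpaired adjusted p = 0.318). Cxcr4, the chemokine receptor that guides migrating interneurons, differed by 0.90 ± 0.16 (adjusted p = 0.0144) and the serotonin channel Htr3a by 0.53 ± 0.12 (adjusted p = 0.0393). Calb2, which encodes calretinin, was the member higher in cerebellum, by -0.49 ± 0.12 (adjusted p = 0.0472). Lhx8, a factor of basal forebrain cholinergic and GABAergic neurons, was too dim for the filter. It read 343, 387, 205 and 199 on the cortex arrays and 4.50, 8.07, 5.64 and 3.13 on the cerebellum arrays. In the fit on all 22626 probe sets, which called 442 (1.95%), it differed by 2.50 (adjusted p = 0.000765).

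Factors of cortical excitatory neurons were higher in cortex as a group: of 17 tested members of the cortical glutamatergic list, 10 were called higher in cortex and none in cerebellum, 16 had a positive difference, and the median was 0.87. Mef2c, a MADS-box factor of excitatory neuron maturation, read 3506, 3709, 3059 and 5089 on the cortex arrays and 424, 344, 425 and 258 on the cerebellum arrays. Its cortex values were all above its cerebellum values, a difference of 3.23 ± 0.19 (adjusted p = 2.1e-05). Neurod6, a bHLH factor of postmitotic pyramidal neurons, read 1203, 1396, 1183 and 1669 on the cortex arrays and 189, 215, 196 and 123 on the cerebellum arrays, a difference of 2.61 ± 0.17 (adjusted p = 3.31e-05). Zbtb18, a repressor needed for cortical neuron differentiation, read 4863, 4899, 4378 and 4197 on the cortex arrays and 1131, 1406, 1354 and 1444 on the cerebellum arrays, a difference of 1.75 ± 0.11 (adjusted p = 2.9e-05). None of the 3 overlapped between regions.

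Bcl11b, which specifies subcerebral projection neurons and also marks striatal neurons, behaved differently between replicate numbers. It read 15078, 2865, 12780.2 and 2814 on the cortex arrays and 2588, 438, 3449 and 393 on the cerebellum arrays. Replicate 1 arrays of both regions were several times brighter than replicate 2 arrays, so the regions overlapped, yet cortex was above cerebellum in each pair. The paired difference was 2.41 ± 0.14 (adjusted p = 1.87e-05, unpaired adjusted p = 0.66). Foxp1, a forkhead factor of upper layer and striatal neurons, had the same layout: 8886, 2691, 9429 and 2503 on the cortex arrays and 3739, 1051, 3157 and 689.6 on the cerebellum arrays, with a difference of 1.47 ± 0.11 (adjusted p = 0.000101, unpaired adjusted p = 0.781). Neurod2, a bHLH relative of Neurod6, differed by 1.66 ± 0.12 (adjusted p = 7.99e-05), Sox5 by 1.08 ± 0.11 (adjusted p = 0.000635) and Lmo4, a LIM-only protein of cortical areas, by 1.16 ± 0.16 (adjusted p = 0.00333). Bcl11a and Dkk3 completed the called members, at 0.87 ± 0.18 and 0.71 ± 0.11.

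The deep layer factors Tbr1 and Fezf2 were too dim for the filter and were called in the fit on all probe sets. Tbr1, the T-box factor of early and deep layer neurons, read 127, 399, 193 and 363 on the cortex arrays and 7.54, 19.1, 6.75 and 8.56 on the cerebellum arrays, a difference of 2.27 (adjusted p = 0.00322). Fezf2, which directs corticospinal identity, read 360.3, 215, 387 and 234 on the cortex arrays and 35.7, 41.4, 9.98 and 11.9 on the cerebellum arrays, a difference of 2.18 (adjusted p = 0.00409). Tbr1 and Fezf2 were above every cerebellum array on every cortex array. Cux2, the other member of the list under the filter, averaged 169 in cortex and 105 in cerebellum. It was not called in the fit on all probe sets (adjusted p = 0.238). Neurod6, Tbr1 and Fezf2, which define cortical excitatory neurons, were thus all found in the samples labelled cortex. Of 6 tested patterning factors of the telencephalon, only Lhx2, a LIM factor of cortical identity, was called, at 0.98 ± 0.13 (adjusted p = 0.00359).

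**Figure D2:**
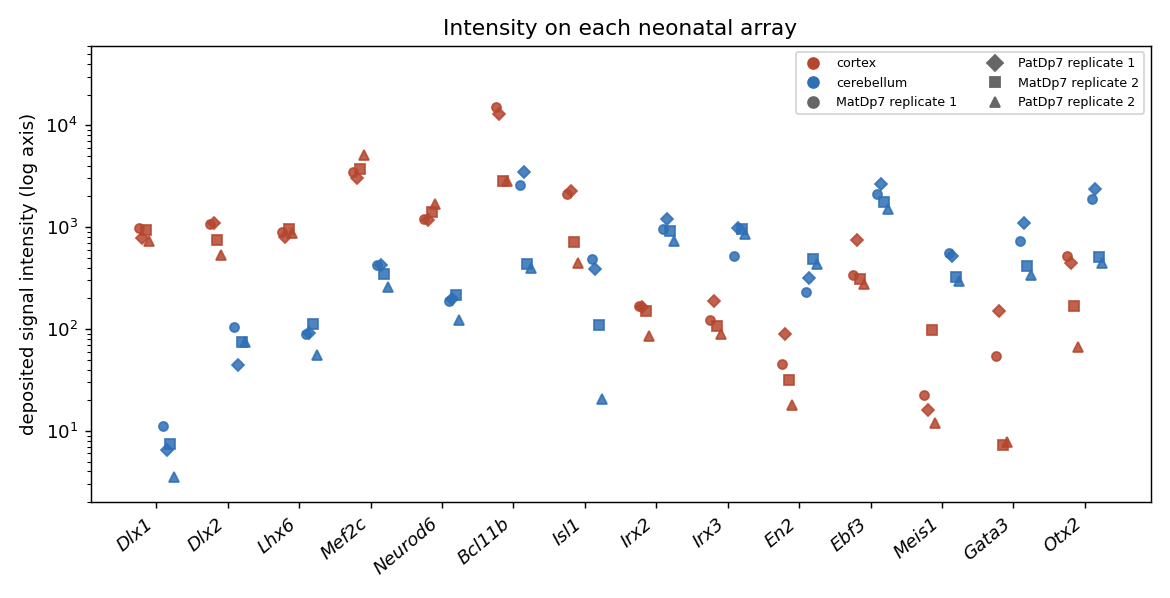
Deposited intensity (y axis, log scale) of 14 genes on each of the 8 neonatal arrays, with colour for the region and marker shape for the duplication and replicate number. Dlx1, Lhx6 and Neurod6 are separated by a wide gap, while Bcl11b, Isl1 and Otx2 overlap because replicate 1 arrays are brighter than replicate 2 arrays in both regions.

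Markers of the striatum and ventral forebrain were present in the samples labelled cortex. Isl1, a LIM factor of striatal projection neurons and also of brainstem motor neurons, read 2111, 721, 2272 and 442 on the cortex arrays and 489, 110.2, 384 and 20.4 on the cerebellum arrays. Cortex was above cerebellum in each pair, but replicate 2 cortex values reached down to those of replicate 1 cerebellum. The difference was 2.36 ± 0.15 (adjusted p = 2.1e-05, unpaired adjusted p = 0.518). Rarb, a retinoic acid receptor of striatal neurons, read 705, 650.3, 705 and 648 on the cortex arrays and 286, 267, 186 and 193 on the cerebellum arrays, a difference of 1.37 ± 0.14 (adjusted p = 0.000559). Of 11 tested striatal genes 3 were called, all higher in cortex, the third being Meis2 at 0.67 ± 0.12 (adjusted p = 0.0146). The list's median was 0.28, and 7 of the 11 differences were positive, with a range of -0.30 to 2.36. A further 3 members on the array were under the filter. Pde10a, a striatal phosphodiesterase, differed by 0.94 ± 0.25 and missed the threshold (adjusted p = 0.0647). Ppp1r1b, which encodes the striatal phosphoprotein DARPP-32, was under the filter at 304, 409, 281 and 645 on the cortex arrays and 86.1, 77.4, 54.9 and 94.0 on the cerebellum arrays, and was called in the fit on all probe sets, at 1.77 (adjusted p = 0.00463). The summed level of the 14 striatal genes on the array was 8912 to 13808 in cortex and 6436 to 9090 in cerebellum; the part of dissected striatum in the cortex differences was not tested.

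Neuropeptide genes were called in both directions, 6 of 18 higher in cortex and 2 higher in cerebellum, with a median of 0.18. Avp, the vasopressin gene of hypothalamic neurons, read 599.5, 2122, 389 and 492 on the cortex arrays and 79.1, 107, 111 and 101 on the cerebellum arrays. The MatDp7 replicate 2 cortex array was far above the other 3, and all 4 were above the cerebellum arrays, a difference of 2.34 ± 0.31 (adjusted p = 0.00328, unpaired adjusted p = 0.113). Its neighbour Oxt, the oxytocin gene, differed by 0.56 ± 0.10 (adjusted p = 0.0174). Nts, the neurotensin gene, read 1239, 1911, 999 and 1724 on the cortex arrays and 371, 718, 301 and 445 on the cerebellum arrays, a difference of 1.59 ± 0.12 (adjusted p = 6.51e-05, unpaired adjusted p = 0.0995). Cck, a peptide of cortical neurons, differed by 1.15 ± 0.16 (adjusted p = 0.00359) and Cort, the cortistatin gene, by 0.95 ± 0.18 (adjusted p = 0.0198). Adcyap1, the gene of PACAP, was higher in cerebellum at -0.80 ± 0.15 (adjusted p = 0.0191), as was the granule protein gene Scg2 at -0.70 ± 0.11 (adjusted p = 0.00636). Of 11 tested hypothalamic and diencephalic genes 2 were called in each direction, and the summed level of that list overlapped between regions (4637 to 7588 in cortex, 5194 to 7583 in cerebellum).

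The called nuclear factor I and Sox genes were higher in cortex. Nfix, a nuclear factor I gene that times the differentiation of progenitors, read 15810.5, 5022, 21009 and 5021 on the cortex arrays and 7421, 1737, 9201 and 1733 on the cerebellum arrays, a difference of 1.32 ± 0.11 (adjusted p = 0.000148, unpaired adjusted p = 0.843). Nfib read 2124, 2315, 2322 and 2641 on the cortex arrays and 764, 1096, 1284 and 1139 on the cerebellum arrays with no overlap, a difference of 1.12 ± 0.12 (adjusted p = 0.00064, unpaired adjusted p = 0.0516). The other 2 members, Nfia at 0.34 ± 0.13 and Nfic at 0.56 ± 0.22, had positive differences that missed the threshold (adjusted p = 0.171 and 0.183). Of 12 tested Sox genes 2 were called, Sox5 and the neuronal factor Sox11 at 1.04 ± 0.15 (adjusted p = 0.00547). Sox21 was also called under median scaling, higher in cerebellum, and Sox4 under quantile scaling, higher in cortex.

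The 7 called guidance genes were higher in cortex: 3 of 12 ephrin and Eph genes, 3 of 21 semaphorin and plexin genes and 1 of 8 slit and netrin genes, Robo1. Robo1 was called in none of the 4 fits without 1 pair, and Ntn1, a netrin gene, was called higher in cerebellum under median scaling and without MatDp7 replicate 1. Efnb2, a transmembrane ephrin, read 856, 2105, 855 and 1975 on the cortex arrays and 495, 612, 372 and 141 on the cerebellum arrays, a difference of 1.73 ± 0.35 (adjusted p = 0.0235, unpaired adjusted p = 0.318). The difference was 0.91 in the replicate 1 pairs and 2.55 in the replicate 2 pairs. The receptors Epha3 and Epha4 differed by 1.17 ± 0.13 and 0.89 ± 0.16 (adjusted p = 0.00127 and 0.014). Plxnd1, a semaphorin receptor, read 551, 441, 347 and 632 on the cortex arrays and 163, 162, 147 and 151 on the cerebellum arrays, a difference of 1.36 ± 0.16 (adjusted p = 0.00137). Plxna2 differed by 1.09 ± 0.16, the ligand Sema3c by 0.75 ± 0.12 and the slit receptor Robo1 by 0.67 ± 0.14, with adjusted p of 0.00547, 0.00887 and 0.0293.

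Other leading genes of cortex lie outside these families. Lpl, the lipoprotein lipase gene, read 932, 1788, 635 and 2756 on the cortex arrays and 219, 327, 118 and 293 on the cerebellum arrays, a difference of 2.30 ± 0.18 (adjusted p = 0.000106, unpaired adjusted p = 0.187). Sla, the Src-like adaptor gene, read 759, 856, 618 and 1162 on the cortex arrays and 147, 234, 134 and 188 on the cerebellum arrays, a difference of 1.97 ± 0.14 (adjusted p = 6.51e-05). Inhba, an activin subunit gene, read 1098, 200.5, 967 and 387 on the cortex arrays and 352, 44.0, 198 and 32.7 on the cerebellum arrays, a difference of 1.83 ± 0.18 (adjusted p = 0.000559, unpaired adjusted p = 0.644). For Inhba the replicate 2 cortex values lay within the range of the replicate 1 cerebellum values or near it, and each pair was still higher in cortex.

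On the cerebellar side, the regional factors of the midbrain-hindbrain territory stood out. Irx2, an Iroquois homeobox factor, read 169, 151, 164 and 86.1 on the cortex arrays and 952, 907, 1197 and 730.1 on the cerebellum arrays, a difference of -2.36 ± 0.13 (adjusted p = 1.87e-05). Irx3 read 124, 106, 189 and 90.3 on the cortex arrays and 517, 952, 972 and 862 on the cerebellum arrays, a difference of -2.28 ± 0.18 (adjusted p = 0.00011), and its neighbour Irx5 read 173, 99.4, 247 and 143 on the cortex arrays and 739, 721, 1262 and 620.4 on the cerebellum arrays, a difference of -2.02 ± 0.14 (adjusted p = 5.24e-05). Irx1, the neighbour of Irx2, was also called, at -0.94 ± 0.22 (adjusted p = 0.0433, unpaired adjusted p = 0.364), with -0.39 in the replicate 1 pairs and -1.49 in the replicate 2 pairs. So 4 of 4 tested Irx genes were called higher in cerebellum, and none of them overlapped between regions. En2, the Engrailed gene that patterns the cerebellum, read 44.8, 31.7, 89.1 and 18.0 on the cortex arrays and 231, 489, 318 and 435 on the cerebellum arrays. Its cortex mean lay below the added constant, so the difference of -2.11 ± 0.26 (adjusted p = 0.00198) became -2.65 or -1.36 with a smaller or larger constant.

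Of 8 tested hindbrain factors 5 were called, all higher in cerebellum, with a median of -1.48, and 12 further members on the array were under the filter. Among those, Pax3 read 78.2, 17.9, 124 and 56.4 on the cortex arrays and 330.2, 173, 448 and 204 on the cerebellum arrays, a difference of -1.50 in the fit on all probe sets (adjusted p = 0.00567). En1, the second Engrailed gene, read 45.9, 41.3, 88.9 and 2.45 on the cortex arrays and 116, 287, 154 and 311 on the cerebellum arrays and was not called there (adjusted p = 0.0857).

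Granule cell genes split. Of 18 tested genes of the granule lineage list 5 were called higher in cerebellum and 3 higher in cortex, with a median of -0.06. Under quantile or median scaling 6 were called higher in cerebellum and 2 higher in cortex. Atoh1 was then called in cerebellum, as it was without PatDp7 replicate 1, and Insm1 was not called. Mab21l1, a developmental gene of granule precursors, read 86.3, 262, 162 and 134 on the cortex arrays and 1247, 1161, 1531 and 1375 on the cerebellum arrays, a difference of -2.75 ± 0.19 (adjusted p = 5.24e-05). Meis1, a homeobox factor of granule cells, read 22.3, 97.7, 16.2 and 12.1 on the cortex arrays and 553, 322, 517 and 296 on the cerebellum arrays, a difference of -2.46 ± 0.28 (adjusted p = 0.00111). With a cortex mean below the added constant, the Meis1 value became -3.18 or -1.57 with a smaller or larger one. Barhl1, which acts downstream of Atoh1 in the rhombic lip, read 231, 187, 171 and 169 on the cortex arrays and 471, 1103, 638 and 967 on the cerebellum arrays, a difference of -1.75 ± 0.22 (adjusted p = 0.002, unpaired adjusted p = 0.0539). Cbln1, a synapse organiser released by granule cells, differed by -0.55 ± 0.11 and Chgb, a secretory granule protein gene, by -0.50 ± 0.11 (adjusted p = 0.0208 and 0.0308). Without MatDp7 replicate 1, without MatDp7 replicate 2 or without PatDp7 replicate 2, Mab21l1, Meis1 and Barhl1 were the 3 members called in cerebellum. The members higher in cortex were Reln, whose product orders cortical layers and Purkinje cells, at 0.98 ± 0.10, Tiam1 at 0.69 ± 0.13 and Insm1 at 0.52 ± 0.12. Reln kept its call in each of the 4 fits without 1 pair, Tiam1 in 2 of them and Insm1 in none. None of the 3 tested Zic genes was called, and Gabra6, a receptor subunit of mature granule cells, was under the filter: its brighter probe set averaged 86.4 in cortex and 56.0 in cerebellum without being called in the fit on all probe sets (adjusted p = 0.47), and the other 44.3 and 43.1.

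Purkinje cell genes were called in cerebellum only. Of 14 tested members of that list 8 were called higher in cerebellum and none in cortex, with a median of -0.62. Ebf3, a factor of the early B-cell factor family found in Purkinje and deep nuclear neurons, read 341, 307, 753 and 276 on the cortex arrays and 2091, 1753, 2659 and 1508 on the cerebellum arrays. Cerebellum was above cortex on all arrays, and the PatDp7 replicate 1 cortex array was the highest of its region, a difference of -2.19 ± 0.13 (adjusted p = 2.1e-05). Ebf2 read 159, 62.6, 319 and 64.3 on the cortex arrays and 1135, 309, 1946 and 262 on the cerebellum arrays, a difference of -2.001 ± 0.20 (adjusted p = 0.000484, unpaired adjusted p = 0.568), and Ebf1, the remaining tested member of the family, differed by -0.40 ± 0.19 and was not called (adjusted p = 0.253). Lhx1, a LIM factor of postmitotic Purkinje cells, read 70.6, 107, 143 and 96.6 on the cortex arrays and 348, 369, 800.3 and 339 on the cerebellum arrays, a difference of -1.66 ± 0.17 (adjusted p = 0.000559, unpaired adjusted p = 0.0593), and its relative Lhx5 differed by -0.76 ± 0.15 (adjusted p = 0.023).

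Other Purkinje genes were called as well. Car8, which encodes a carbonic anhydrase-related protein that binds the IP3 receptor, read 110.1, 199.8, 260.4 and 249 on the cortex arrays and 301, 573, 890.3 and 807 on the cerebellum arrays, a difference of -1.38 ± 0.14 (adjusted p = 0.000476, unpaired adjusted p = 0.0793); a second, dim probe set of Car8 did not show it. Pcp4, a calmodulin regulator also found in deep cortical layers, differed by -0.75 ± 0.10 (adjusted p = 0.00288). Rora, the orphan nuclear receptor lost in staggerer mice, differed by -0.61 ± 0.11 (adjusted p = 0.0141) and Aldoc, the gene of the zebrin II antigen and also an astrocyte gene, by -0.63 ± 0.10 (adjusted p = 0.00828). Pcp2, the L7 gene that defines Purkinje cells, was under the filter, with 13.0, 85.6, 105 and 60.3 on the cortex arrays and 257, 346, 152 and 273 on the cerebellum arrays, and was not called in the fit on all probe sets (adjusted p = 0.0557). The glutamate transporter gene Slc1a6, also under the filter, was called there at -1.17 (adjusted p = 0.0154). For Plcb4 the brighter probe set was not called, at -0.66 (adjusted p = 0.126), while the dimmer one was, at -1.80 (adjusted p = 0.0247).

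Glutamatergic neurons outside the cortex use the vesicular transporter gene Slc17a6, which read 789, 971, 1097 and 1125 on the cortex arrays and 3522, 2446, 3107 and 3098 on the cerebellum arrays, a difference of -1.56 ± 0.14 (adjusted p = 0.000204). Lhx9, a LIM factor of cerebellar nuclear neurons and of diencephalon, read 217, 412, 342 and 344 on the cortex arrays and 842, 825, 690.4 and 887 on the cerebellum arrays, a difference of -1.20 ± 0.16 (adjusted p = 0.00253, unpaired adjusted p = 0.078). Neither gene overlapped between regions. These were the 2 members called higher in cerebellum among 11 tested genes of cerebellar nuclei and interneurons; Lhx2 and Meis2, which the list also holds, were called higher in cortex, and the median was -0.24.

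Of 12 tested genes of midbrain and brainstem nuclei 4 were called higher in the samples labelled cerebellum. Gata3, a zinc finger factor of midbrain and hindbrain GABAergic and serotonergic neurons, read 54.0, 7.32, 149 and 7.79 on the cortex arrays and 734, 412, 1089.6 and 336 on the cerebellum arrays. Each region spread widely, with the replicate 1 arrays above the replicate 2 arrays, and the difference was -2.76 ± 0.15 (adjusted p = 1.87e-05, unpaired adjusted p = 0.0995). Tal1, which works with Gata factors in these neurons and in blood cells, read 114, 164, 188 and 120.00 on the cortex arrays and 575, 1059, 684 and 952 on the cerebellum arrays, a difference of -2.11 ± 0.17 (adjusted p = 0.00011). Otx2, a homeobox factor of midbrain and choroid plexus that late granule precursors also carry, read 522, 167, 442 and 67.1 on the cortex arrays and 1878, 511, 2347 and 445 on the cerebellum arrays, a difference of -1.86 ± 0.16 (adjusted p = 0.000162, unpaired adjusted p = 0.66). Ddc, the decarboxylase of monoamine neurons, read 124, 148, 181 and 118 on the cortex arrays and 197, 1002, 294 and 914 on the cerebellum arrays, a difference of -1.49 ± 0.34 (adjusted p = 0.0369, unpaired adjusted p = 0.526), with -0.54 in the replicate 1 pairs and -2.45 in the replicate 2 pairs.

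Of the other 8 genes of that list 7 were not called and Isl1 was called higher in cortex, and the list's median was -0.62. Its summed level over 17 genes on the array was 2628 to 8065 in cortex and 6027 to 8323 in cerebellum. The serotonin transporter gene Slc6a4, a defining marker of raphe neurons, was under the filter with 27.7, 7.20, 21.7 and 17.8 on the cortex arrays and 98.8, 391, 185 and 391 on the cerebellum arrays, and was called in the fit on all probe sets at -2.04 (adjusted p = 0.0241). The forkhead factors of ventral midbrain and hindbrain, Foxa1 and Foxa2, differed by -1.19 ± 0.17 and -0.84 ± 0.20 (adjusted p = 0.00445 and 0.0465). The part of midbrain or brainstem tissue in the cerebellum samples was not tested.

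Tfap2b, an AP-2 factor of cerebellar GABAergic progenitors and of other hindbrain and midbrain neurons, had the largest difference on the cerebellar side. It read 87.8, 10.7, 298 and 12.3 on the cortex arrays and 1995, 561, 1792 and 473 on the cerebellum arrays. The replicate 1 arrays were the brighter ones in both regions, and no cortex value reached a cerebellum value, a difference of -3.15 ± 0.21 (adjusted p = 4.47e-05, unpaired adjusted p = 0.227). Aldh1a1, a retinaldehyde dehydrogenase found in midbrain dopamine neurons and some vessels, read 29.5, 24.1, 34.3 and 204 on the cortex arrays and 174, 1145, 232 and 1027 on the cerebellum arrays. Its PatDp7 replicate 2 cortex value overlapped the cerebellum values, and the difference was -2.31 ± 0.35 (adjusted p = 0.00638, unpaired adjusted p = 0.414). Lamp5, a membrane protein of neurons, read 35.1, 132, 28.4 and 75.3 on the cortex arrays and 769.8, 314, 394 and 238 on the cerebellum arrays, a difference of -1.97 ± 0.33 (adjusted p = 0.0109, unpaired adjusted p = 0.111).

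**Figure D3:**
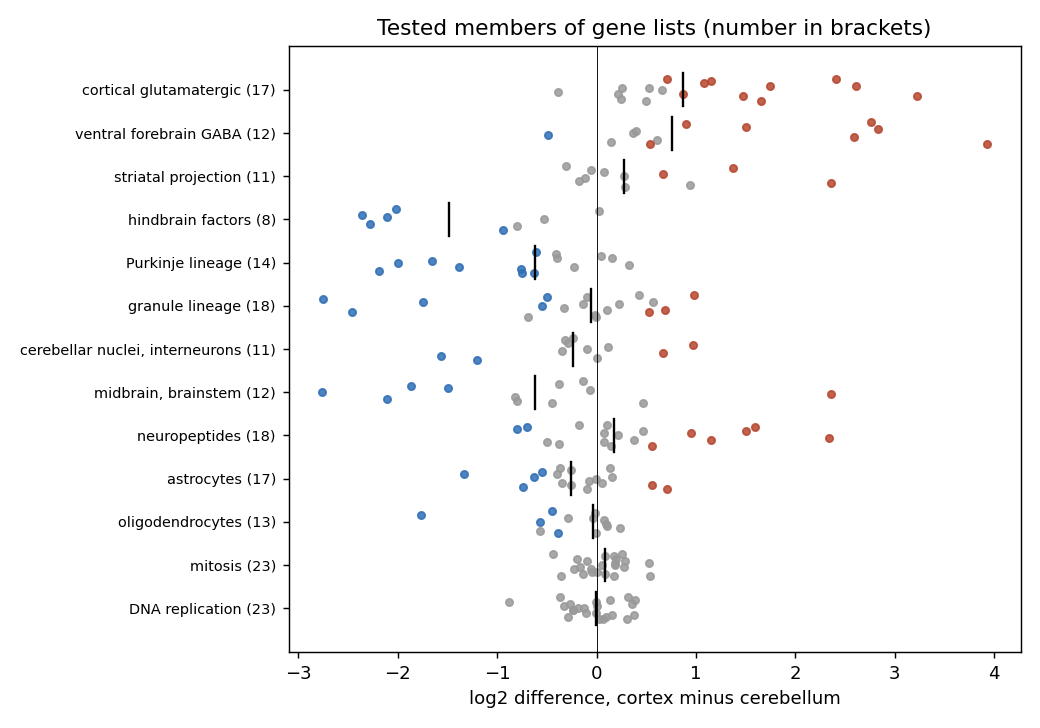
Log2 difference, cortex minus cerebellum (x axis), of each tested member of 13 gene lists (rows, with the number tested); red and blue points were called higher in cortex and in cerebellum, grey points were not called, and the black bar is the list's median. The cortical glutamatergic median is 0.87 and the hindbrain factor median -1.48, while no mitosis or DNA replication gene was called.

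Genes of neuronal inhibition and adhesion were higher in cerebellum where they were called. Slc12a5, the chloride exporter KCC2 that makes GABA inhibitory as neurons mature, read 1863, 2751, 2304 and 3273 on the cortex arrays and 4508, 5102, 4431 and 5310.3 on the cerebellum arrays, a difference of -0.94 ± 0.11 (adjusted p = 0.00164, unpaired adjusted p = 0.202). With the glycine transporter gene Slc6a9 at -0.63 ± 0.11 and the GABA receptor subunit gene Gabrg1 at -0.82 ± 0.19, 3 of 13 tested GABA and glycine genes were called, all higher in cerebellum (adjusted p = 0.0147 and 0.0394 for the latter). None of 7 ionotropic and metabotropic glutamate receptor genes was called, though Gria1 was called higher in cortex under quantile scaling. Among 15 contactin, neurexin and related genes 3 were called higher in cerebellum, the adhesion genes Ncam2 at -1.01 ± 0.15, Dscam at -0.87 ± 0.18 and Cntn1 at -0.55 ± 0.12 (adjusted p = 0.00639, 0.0245 and 0.0305); other, dim probe sets of Ncam2 lay near 0. Among 15 cadherins 2 were called, Cdh22 at -0.59 ± 0.11 and Pcdh18 at -0.55 ± 0.12 (adjusted p = 0.018 and 0.0351). Without MatDp7 replicate 1, without MatDp7 replicate 2 or without PatDp7 replicate 2, no cadherin was called and Ncam2 was the 1 contactin or related gene called; Slc12a5 alone of the GABA and glycine genes was called without PatDp7 replicate 2.

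Of 8 receptor genes for monoamines, acetylcholine and cannabinoids 2 were called in each direction, but none of them without MatDp7 replicate 1, without MatDp7 replicate 2 or without PatDp7 replicate 2, and none higher in cortex under either other scaling. Cnr1, the cannabinoid receptor gene, and Htr3a were higher in cortex, and Chrna3, a nicotinic receptor subunit gene, and Htr1b were higher in cerebellum at -0.76 ± 0.17 and -0.57 ± 0.14 (adjusted p = 0.0367 and 0.0429). Of 16 potassium channel genes only Kcnk2 was called, at 0.43 ± 0.10 (adjusted p = 0.0435), and it was called in none of the 4 fits without 1 pair.

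More glial genes were called higher in cerebellum than in cortex. Aqp4, the water channel of astrocyte endfeet, read 849, 355, 999.8 and 509 on the cortex arrays and 3443, 669.5, 2933 and 1121 on the cerebellum arrays; each pair was higher in cerebellum, although the regions overlapped, and the difference was -1.34 ± 0.17 (adjusted p = 0.00246, unpaired adjusted p = 0.727). Of 17 tested astrocyte and Bergmann glia genes 4 were called higher in cerebellum, namely Aqp4, Aldoc, Sparcl1 at -0.74 ± 0.09 and Apoe at -0.55 ± 0.11 (adjusted p = 0.0024 and 0.0235). Gfap, the intermediate filament gene of astrocytes, and Slco1c1, a thyroxine transporter gene, went the other way at 0.71 ± 0.15 and 0.56 ± 0.11 (adjusted p = 0.027 and 0.0247). No member of that list was called higher in cortex without MatDp7 replicate 1 or without PatDp7 replicate 2.

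All 4 called genes of the 13 tested for the oligodendrocyte lineage were higher in cerebellum. Omg, the oligodendrocyte-myelin glycoprotein gene that neurons also express, read 107, 296, 127 and 453 on the cortex arrays and 976, 699.6, 779 and 989 on the cerebellum arrays, a difference of -1.77 ± 0.26 (adjusted p = 0.00533, unpaired adjusted p = 0.201). Pdgfra, the receptor of oligodendrocyte progenitors, differed by -0.45 ± 0.11, Olig1 by -0.39 ± 0.10 and Cnp by -0.57 ± 0.13 (adjusted p = 0.0479, 0.0474 and 0.0332). Omg stayed called without each of the 4 pairs; of the other 3 genes, Pdgfra alone stayed called, without PatDp7 replicate 1, and none did without MatDp7 replicate 1, MatDp7 replicate 2 or PatDp7 replicate 2. The calls of Pdgfra and Cnp are lost when the gene's probe sets are averaged, and that of Olig1 under both other scalings.

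Larger factor families held members of both regions. Of 14 LIM homeobox and LIM-only genes tested, 4 were called in each direction: Lhx6, Isl1, Lhx2 and Lmo4 higher in cortex, and Lhx1, Lhx5, Lhx9 and Lmo1 (at -0.56 ± 0.11, adjusted p = 0.0241) higher in cerebellum, with a median of 0.15. Of 14 forkhead genes 2 were called in each direction, Foxp1 and Foxo1 (at 0.74 ± 0.11, adjusted p = 0.00711) in cortex and Foxa1 and Foxa2 in cerebellum. Of 14 nuclear receptor genes Rarb and the thyroid hormone receptor gene Thra (at 0.71 ± 0.15, adjusted p = 0.0285) were higher in cortex and Rora in cerebellum. None of 12 housekeeping genes and none of the 5 tested imprinted genes of chromosome 7 was called, though without MatDp7 replicate 1 Pgk1 and Peg3 were, both higher in cerebellum.

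Sonic hedgehog, Wnt and retinoic acid genes were called in larger shares than the 5.47% of all genes, but most of these calls rest on the full set of pairs. Among 11 tested Sonic hedgehog genes 2 were called, both targets and both higher in cortex: Ccnd2, a D-type cyclin gene, read 14580.4, 2587, 13772 and 2455 on the cortex arrays and 6069.8, 1188, 5625 and 1106 on the cerebellum arrays, a difference of 1.19 ± 0.09 (adjusted p = 0.00011, unpaired adjusted p = 0.894), and Mycn differed by 0.62 ± 0.12 (adjusted p = 0.0178). Ptch1, the receptor gene and a direct target, differed by -0.52 ± 0.14 without being called (adjusted p = 0.0664). Of 18 Wnt genes 3 were called higher in cortex, the ligands Wnt7a at 0.53 ± 0.13 and Wnt7b at 0.58 ± 0.11 and the modulator Dkk3, and 2 higher in cerebellum, the receptor Fzd1 at -0.84 ± 0.16 and the factor Tcf7l2 at -0.78 ± 0.13 (adjusted p = 0.0472, 0.0216, 0.0215 and 0.00978). No Wnt gene was called without PatDp7 replicate 2, and without MatDp7 replicate 1 Dkk3 was the 1 Wnt gene called. Among 11 retinoic acid genes the receptors Rarb and Rxra (the latter at 0.66 ± 0.16, adjusted p = 0.0456) were higher in cortex and the enzyme gene Aldh1a1 higher in cerebellum; Rarb, Aldh1a1 and Ccnd2 kept their calls without each pair.

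No member was called in the lists for FGF (13 tested), BMP and TGF-beta (20), Notch (16), DNA replication (23), mitosis (23), immediate early genes (14), microglia (14) and meninges and mesenchyme (21), beside 5.47% of all genes. Exceptions among the scalings and the fits without 1 pair were Fgf13 under quantile scaling, Fen1 without MatDp7 replicate 2, and Col3a1 and Slc6a20a without PatDp7 replicate 1. The lists' medians lay between -0.0034 and 0.12. A missed threshold does not show that levels were equal: Notch2 differed by 0.60 ± 0.15 (adjusted p = 0.0507) and Egr1, an activity-induced factor, by 0.83 ± 0.21 (adjusted p = 0.0505). Of 19 progenitor and radial glia genes 2 were called, Insm1 higher in cortex and Dbi higher in cerebellum at -0.43 ± 0.10 (adjusted p = 0.0445). Nes, the nestin gene of neural progenitors, differed by 0.64 ± 0.20 (adjusted p = 0.108).

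Markers of tissues beside the brain regions were given the same look. Blood genes had a summed level of 3341 to 4586 in cortex and 4600 to 5591 in cerebellum, and 3 of 10 tested were called higher in cerebellum: Tal1, the haem synthesis gene Alas2 at -0.75 ± 0.16 and Car2 at -0.44 ± 0.11 (adjusted p = 0.0323 and 0.0471). The globin genes Hba-a1 and Hba-a2 read at most 254 and 125 on any array. Meningeal and mesenchymal genes summed to 14426 to 21207 in cortex and 7365 to 29048 in cerebellum, choroid plexus genes to 13901 to 19728 and 16255.8 to 18236, microglial genes to 5858 to 6744 and 4895 to 7401, and endothelial genes to 7326 to 9794 and 7299 to 9176. Rgs5, a pericyte gene, was the 1 called member of the endothelial list (at 0.56 ± 0.12, adjusted p = 0.0335). Of 15 hypoxia and stress genes Ndrg1 was higher in cortex at 0.56 ± 0.11 and Bnip3 higher in cerebellum at -0.52 ± 0.10 (adjusted p = 0.025 and 0.0211). These sums overlap between the regions except for blood. Hox genes, which mark levels behind the cerebellum, summed to 8578 on the MatDp7 replicate 1 cerebellum array and to 889 to 2177 on the other 7; on that array Hoxa5 read 4683, against 14.3 to 149 elsewhere. Hoxa5 was not called (adjusted p = 0.349). Hoxb3 read 861 on that array and 367 on the PatDp7 replicate 1 cerebellum array, against 10.7 to 87.5 elsewhere. On the PatDp7 replicate 1 cerebellum array Hoxa5 read 135 and Hoxb2 385, beside highest cortex values of 149 and 340. Without the MatDp7 replicate 1 pair, 276 probe sets were called, 262 of them among the 722. The counts of called list members were then 9 of 17 for cortical glutamatergic genes, and in cerebellum 4 of 8 for hindbrain factors, 6 of 14 for Purkinje genes and 4 of 12 for midbrain and brainstem genes. Without the PatDp7 replicate 1 pair, 526 probe sets were called, 455 of them among the 722. The same counts were then 12 of 17, 5 of 8, 8 of 14 and 4 of 12. The part of these tissues in the regional differences was not tested.

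The regional difference was compared between the replicate numbers, since they differ in range, in Xist and in Y-linked genes. In the 2 pairs numbered 1, fitted alone, 228 probe sets were called (1.68%), and in the 2 pairs numbered 2, 1041 were called (7.67%); 171 and 540 of these were among the 722, with the same sign. Tested as an interaction in limma, with 2 pairs per number, no probe set was called for a dependence of the regional difference on the number (0%), while 1352 of 13576 had an unadjusted p under 0.05. This does not show that the differences were equal. Neurod6 differed by 2.35 in the pairs numbered 1 and 2.87 in those numbered 2, Bcl11b by 2.20 and 2.63, and Irx2 by -2.36 and -2.37. Genes further from equality were Omg, at -2.46 and -1.08, and Aldh1a1, at -1.60 and -3.03. Xist itself was called higher in cortex at 0.55 ± 0.12 (adjusted p = 0.0283), and this call is lost under median scaling and when its probe sets are averaged.

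**Figure D4:**
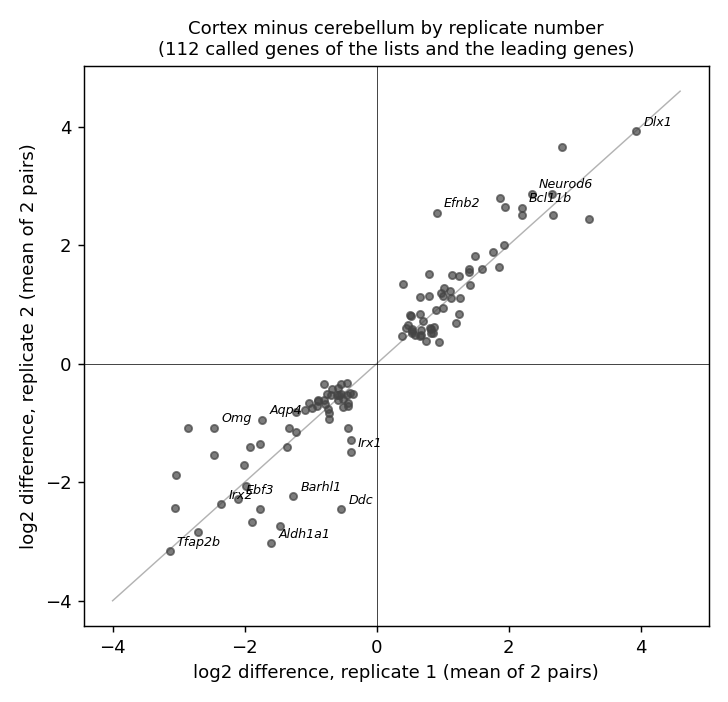
Log2 difference, cortex minus cerebellum, in the 2 pairs numbered 2 (y axis) against that in the 2 pairs numbered 1 (x axis) for 112 called genes of the lists and the leading genes; the grey line is equality. The genes were chosen by the fit on all 4 pairs, so every point lies in the upper right or lower left part, and Dlx1, Bcl11b and Irx2 lie close to the line.

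By duplication, the MatDp7 pairs alone gave 244 called probe sets (1.8%) and the PatDp7 pairs alone 292 (2.15%), of which 219 and 238 were among the 722. No probe set was called for a dependence of the regional difference on the duplication (0%), and 542 had an unadjusted p under 0.05; with median scaling 1 was called. Among the leading genes, Dlx1 had 4.05 in MatDp7 and 3.82 in PatDp7, Mef2c 3.08 and 3.38, Irx3 -2.18 and -2.38, and Tfap2b -3.58 and -2.71.

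Levels in 15.5 dpc brain, taken from the 4 arrays of that age as a description, were set beside both neonatal regions. Maximum intensities on those arrays were 18228 to 25858, near the 17662 to 20569 of the neonatal replicate 2 arrays. The neonatal means also hold the replicate 1 arrays, with maxima of 43127 to 61172. A position above or below both regions can therefore turn on the replicate 1 arrays, and how many positions do so was not tested. Of the 200 genes higher in cortex, 47 had a 15.5 dpc mean above both regions, 100 between them and 53 below both. Of the 246 genes higher in cerebellum, 40 lay above both, 95 between and 111 below both. Neurod6, at 1313 ± 489 (SD, n = 4) in 15.5 dpc brain, was near its neonatal cortex level of 1363 ± 226, and Zbtb18, at 2945 ± 484, lay between 4584 ± 351 in cortex and 1334 ± 140.4 in cerebellum. Omg was far below both regions, at 32.1 ± 11.1 against 246 ± 162 in cortex and 861 ± 144 in cerebellum. Aqp4 was at 116 ± 39.0 against 678 ± 298 and 2042 ± 1353. For Slc12a5 the 15.5 dpc level was 1349 ± 679, below 2548 ± 604 in cortex and 4838 ± 435 in cerebellum.

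**Figure D5:**
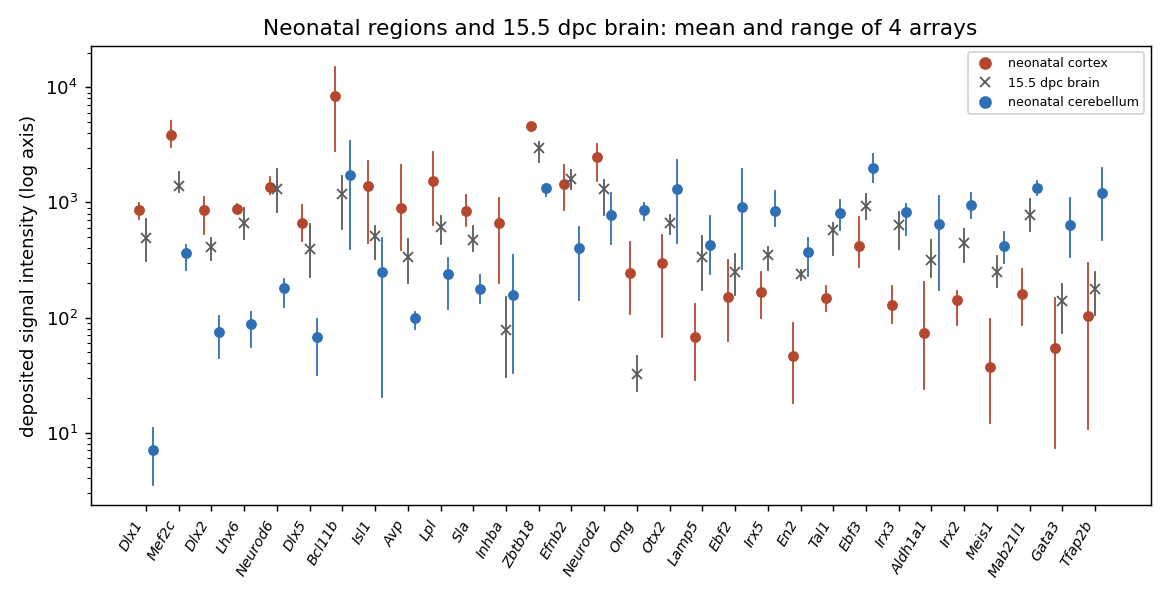
Mean (symbol) and range (line) of the deposited intensity (y axis, log scale) on 4 arrays each of neonatal cortex, 15.5 dpc brain and neonatal cerebellum, for the 15 called genes with the largest difference in each direction. The 15.5 dpc means of Bcl11b, Inhba and Omg lie below both neonatal means. For Bcl11b and Inhba the neonatal means include replicate 1 arrays that are brighter than the replicate 2 arrays.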

How the data were processed

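RNA from 8 neonatal samples (4 cortex, 4 cerebellum) and, for levels, 4 samples of 15.5 dpc brain was hybridised to 1 array each. The deposited intensity is a linear signal from MAS5, a tool listed without a version in the submitters' processing notes. The 2% trimmed mean of each array was 500.13 to 500.15, so the deposited intensity was used as already scaled. Of 22690 probe sets 64 are controls; the platform annotation names 1 gene for 20380, several for 691 and none for 1555. To each value 52.0273 was added, the 20th percentile over the 14 arrays, before taking log2, and probe sets at or above the 40th percentile of mean log2 over the 14 arrays were tested.

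The limma package 3.58.1 (R 4.3.3) fitted region with the 4 pairs as a block and an intensity trend in the variance, with 3 residual and 6.48 prior degrees of freedom. The block was kept because the comparison is defined as these 4 pairs. Deviations from the regional means correlated by 0.686 to 0.791 within the pairs, and 8 of 8 arrays correlated best with their own pair. Other cortex and cerebellum arrays correlated by 0.397 to 0.616 where they shared the replicate number and by -0.711 to -0.469 where they did not. Part of the correlation within pairs thus goes with the replicate number. A first principal component with 58.6% of the variance separated the replicate numbers and a second with 15.4% the regions. Where a gene had several probe sets, the one with the highest mean log2 stands for it. Of 191 called genes with several tested probe sets, 175 had the same sign in all of them.

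Genes named are the 15 with the largest called difference in each direction, the called members of 52 gene lists with up to 4 further members by p, and members of 5 small families; names outside this rule are given as examples of dim markers, chosen after their values were seen. The comparison, its members and the lists were chosen with earlier results of these data known. The fit was tested on simulated data. Alternatives covered the pairing, the constant, the filter, scaling, the variance trend, the omission of each pair, and each number and duplication alone; counts per list without each pair were added after seeing the data. The number of arrays limits the precision. Python 3.11.15 with matplotlib 3.10.9 drew the figures.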

Additional observations from a re-analysis of the deposited data

Results flagged for a closer look

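Among 244 regional groups of 4 arrays of the named genes, 9 held 1 array far from the other 3, where the gap to the nearest value, as a part of the range, passed Dixon's critical value; chance flags about 1 group in 20. On cortex arrays, Avp read 2122 in MatDp7 replicate 2 against 389 to 599.5 on the others, and Meis1 read 97.7 there against 12.1 to 22.3. Aldh1a1 read 204 in PatDp7 replicate 2 cortex against 24.1 to 34.3, and Slc6a9 read 1416 on that array against 975 to 1033. Ebf3 read 753 in PatDp7 replicate 1 cortex against 276 to 341, and Tiam1 read 641 there against 491 to 510.1. Cort was low in MatDp7 replicate 1 cortex, at 177 against 253 to 265. On cerebellum arrays, Lhx1 read 800.3 in PatDp7 replicate 1 against 339 to 369, and Hoxa5 read 4683 in MatDp7 replicate 1 against 14.3 to 135.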

How the results depend on the processing

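Beside 722 called probe sets, 40 were called without the block of pairs, 50 with 8 groups over all 14 arrays and no block, and 344, 340 of them shared, with the pairs as a random block. Without a filter 442 were called, without an intensity trend 462, in MatDp7 alone 244, in PatDp7 alone 292 and in replicate number 1 alone 228. Leaving out an array drops its pair in a paired fit, and the 4 fits without 1 pair called 200 to 526: 276 without MatDp7 replicate 1, 398 without MatDp7 replicate 2 and 200 without PatDp7 replicate 2. Calls shared with the reported fit had the same sign under every alternative. The other constants, the stricter filter, both scalings, replicate number 2 alone and the block by number and duplication gave 598 to 1041 calls. The dependence on duplication had 1 call under median scaling. Of 112 called named genes none changed sign in any alternative run, and 93 lost their call without any block. The stable signs are not a separate result. Fits that change only the block give the same difference, and a gene whose 4 pairs agree keeps its sign in any subset of them. Hoxa5, not called, turned to 0.40 in replicate number 2 alone. The cause of these changes was not tested. Probe sets near the added constant have differences whose size that constant sets.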
